A study of Mus musculus with 12 samples.

Results

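Malat1, Neat1, Tug1, Miat, Gas5, Snhg1 and Snhg12 are long noncoding RNAs (lncRNAs) that work in, or are processed in, the nucleus. They were chosen by name, and the 7 make up the set described here out of 22556 genes counted. Chromatin-associated RNA sequencing (ChrRNA-seq) reads the RNA that stays with the insoluble chromatin pellet of purified nuclei, so retained nuclear RNAs and transcripts still being made are both measured.

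Malat1 is a nuclear-retained RNA concentrated at nuclear speckles, bodies rich in splicing factors. Neat1, its neighbour on the same chromosome, is the RNA scaffold of paraspeckles, and Tug1 and Miat are further lncRNAs with a nuclear fraction. Gas5, Snhg1 and Snhg12 carry small nucleolar RNAs (snoRNAs) in their introns: splicing releases the introns, snoRNAs are trimmed out of them as guides for the modification of ribosomal and other RNA, and the spliced host RNA is in general short-lived.

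The 12 libraries came from iXist-ChrX mouse embryonic stem cells (mESCs), female XX cells of a 129S x Cast cross (Castaneus below) grown on inactivated mouse fibroblast feeders, which the study's methods describe as removed by pre-plating before RNA extraction. In all of them a TetOn promoter replaced the endogenous Xist promoter on the 129S allele, and the activator protein rtTA was expressed from the TIGRE locus. Each line was sampled without doxycycline (Dox) and after 24 h in Dox at 1.0–1.5 µg/mL, and the study asked how deletions in Xist affect silencing of the X chromosome. WT, with undeleted inducible Xist, has 1 library per state, so its values carry no replicate error. XistDelA, which lacks the A-repeat, has 3 clones (C1, 2C2 and C11), each with 1 library per state. XistDelm6A/T1_11C (11C below), which lacks the 5′ m6A region, is 1 line with 2 replicates per state. The deposited data of C11 carry a deletion designation that differs from that of C1 and 2C2.

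Total counts on genes ran from 18893447 to 36007145 per library, with a median of 26552191, and levels are given as RPM, the reads of a gene scaled by these totals. Xist rose from 85.6 to 297 RPM without Dox to 1267 to 5514 RPM with Dox. The induced level differed by line, at 1267 to 1600 RPM in XistDelA, 3140 and 4576 RPM in 11C and 5514 RPM in WT. Its reads assigned to a parent were at least 98.2% from the second genome column of the counts, which was for that reason taken as 129S. Of 8 mESC markers, 7 were above 0 in every library, with sums between 1186 and 2092 RPM and Zfp42 or Esrrb on top, while Sox2 was listed at 0 throughout. Several features ran with the 11C line. Rmrp, the RNA of RNase MRP, was between 4056 and 7638 RPM in the 4 libraries of 11C and between 498 and 918 RPM in the other 8. The 2 replicates of 11C also stood apart from each other for Neat1 and Miat, whose line differences are therefore also given without each of them.

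The nuclear-retained members differ in build from the snoRNA hosts. The counted intervals, in mm10 coordinates as the files give them, were chr19:5795689-5802671 for Malat1, chr19:5842301-5845478 for Neat1, chr11:3639784-3648814 for Tug1 and chr5:112213227-112228948 for Miat, all on the minus strand. On the plus strand lay Gas5 (chr1:161035165-161038537), Snhg1 (chr19:8723486-8726326) and Snhg12 (chr4:132308677-132311024). GENCODE M21 places 10 snoRNA entries inside Gas5, 8 inside Snhg1 and 5 inside Snhg12 on the same strand, among them Snord78 and Snord47 in Gas5, Snord22 in Snhg1, and Snora44, Snora61 and Snord99 in Snhg12. Snord80 in Gas5 and Snora16a in Snhg12 are each entered as 2 overlapping intervals. None lay inside the other 4 members. The interval of Neat1 spans 3178 bases, 15.3% of the 20771 bases of the GENCODE gene, so its counts cover the short Neat1 isoform and the start of the long one and cannot separate them. Counting ran over whole transcript spans, and annotated exons of alternative transcripts together cover 100% of each host's span, so spliced RNA and introns were not told apart.

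The promoters of the 3 snoRNA hosts are shown because the levels of these members were correlated over the libraries, with Malat1 beside them. Each line gives 40 bases before the RefSeq start and 20 from it (GRCm38.p6, sequences from RefSeq), and capitals mark the letters TATA, overlapping matches included, which were searched on both strands and are their own reverse complement. The windows are chr1:161035126-161035185 on the plus strand for Gas5, chr19:8723447-8723506 plus for Snhg1, chr4:132308638-132308697 plus for Snhg12 and chr19:5802653-5802712 minus for Malat1.
Gas5: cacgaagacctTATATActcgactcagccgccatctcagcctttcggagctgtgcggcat
Snhg1: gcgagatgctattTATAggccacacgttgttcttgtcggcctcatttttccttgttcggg
Snhg12: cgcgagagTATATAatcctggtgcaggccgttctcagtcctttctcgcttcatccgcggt
Malat1: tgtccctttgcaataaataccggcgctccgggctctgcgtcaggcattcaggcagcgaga
With the start base counted as 0, TATA began at -29 and again at -27 in Gas5, at -27 in Snhg1, and at -32 and again at -30 in Snhg12, and the letters were in none of the windows of Malat1, Tug1 and Miat. Promoters were matched for 6 of the 7 members, all but Neat1. Across all 32851 promoter windows of the same length, 3205 held TATA (9.76%), as did 3 of 16 windows of other snoRNA host lncRNAs, those of Snhg5, Snhg7 and Snhg8. Snhg17 has repeated windows among the 16, Snhg14 is included, and Snhg6 and Epb41l4aos are not. The windows are thus not the same set as the other hosts tested below. A match describes the letters in the window and no more.

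Levels per length spread widely. Malat1 was the gene with the most reads of all 22556 and the third per kilobase, at a mean of 1226 RPM per kb over the 12 libraries (lowest 993, highest 1790.1). Gas5 followed at 225 RPM per kb (162 to 304) and Snhg1 at 164 RPM per kb (105 to 237). The ranges of Gas5 and Snhg1 overlap, although Gas5 was above Snhg1 in 12 of 12 libraries. Snhg12 at 57.0 RPM per kb (31.2 to 78.5), Neat1 at 38.8 (22.9 to 94.9) and Tug1 at 31.8 (21.6 to 37.2) overlapped from one to the next: Snhg12 was above Neat1 in 9 of 12 libraries and Neat1 above Tug1 in 5 of 12. Miat stood far below, at 0.202 RPM per kb (0.0202 to 0.358). The median gene was at 0.182 RPM per kb, and Miat was higher than 51.1% of genes, so the word abundant holds for 6 of the members and not for Miat. Together the members took 0.868% to 1.43% of all counts in a library.

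**Figure D1:**
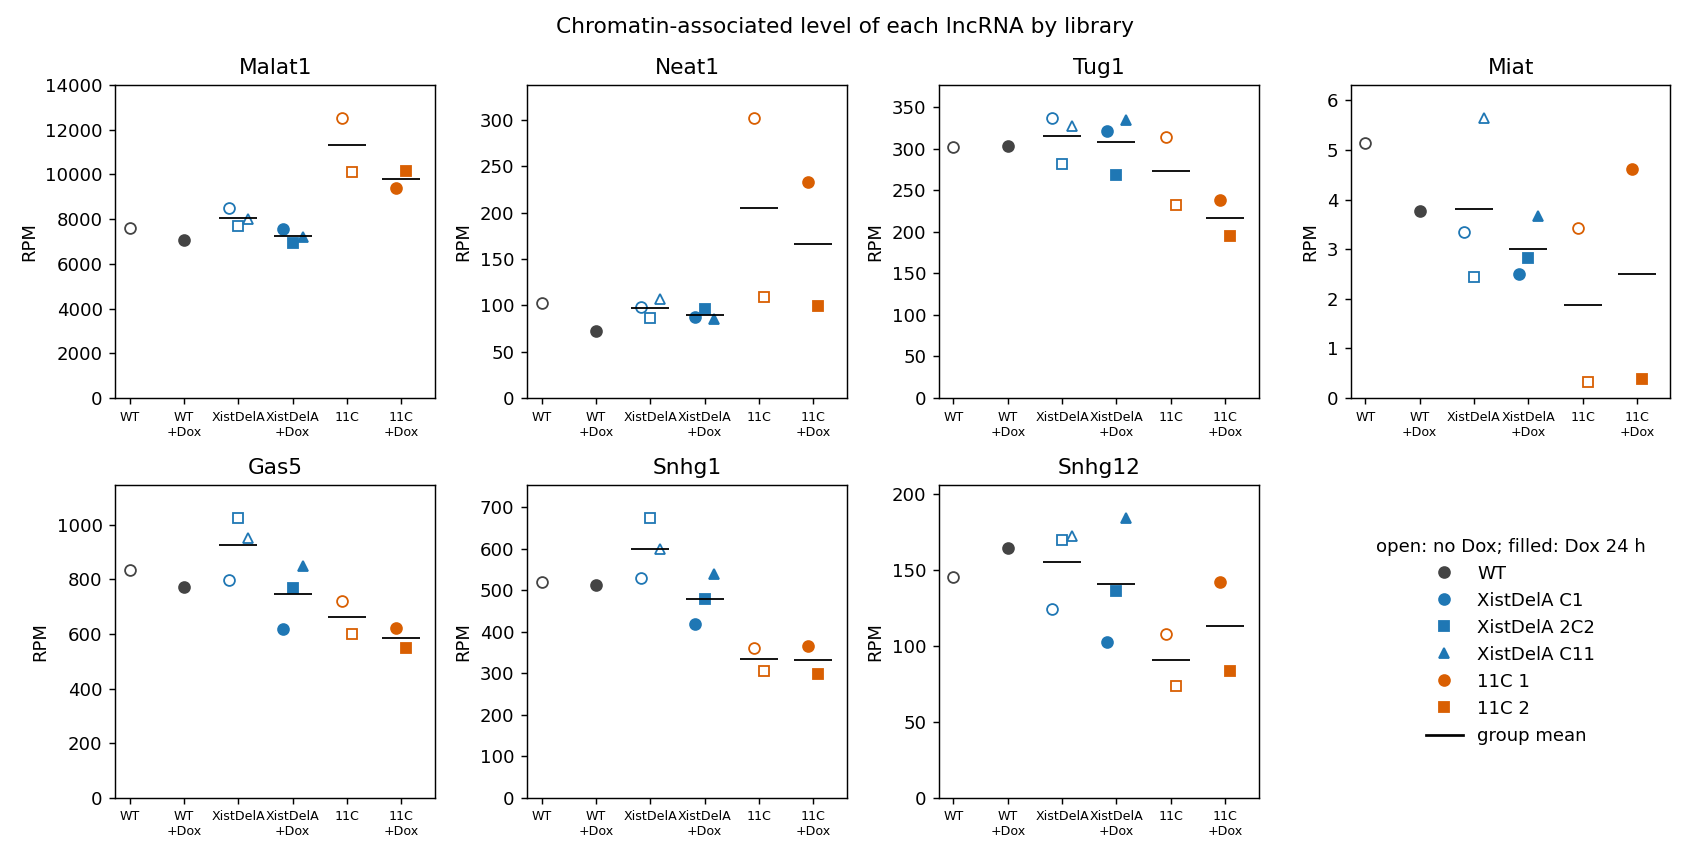
Level of each lncRNA in RPM (y axis, from 0) in each of the 12 libraries by line and Dox (x axis), with open symbols without Dox, filled symbols with Dox and a bar at the mean of groups with replicates. Snhg1 is lower in all 4 libraries of 11C (299 to 365 RPM) than in the other 8 (419 to 673 RPM), and the replicates of 11C differ for Neat1 and Miat.

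Among the snoRNA hosts, Gas5 was at 799.5, 1024 and 952 RPM in XistDelA clones C1, 2C2 and C11 without Dox and at 619, 767 and 849 RPM with Dox. Their group means were 925 ± 115 and 745 ± 117 RPM (SD, n = 3). The 2 states overlap as groups, but each clone was lower with Dox. In 11C replicates 1 and 2, Gas5 was at 722 and 600.2 RPM without Dox and at 622 and 547 RPM with Dox. WT was at 833 RPM without Dox (exact Poisson 95% interval for counting error, 822 to 844) and 774 RPM with Dox (764 to 784). Such intervals cover counting error only and hold no spread between cultures or libraries. PCR copies are not independent molecules, so even the counting error may be understated. Gas5, first found as a growth-arrest-specific transcript, was thus lower with Dox in WT and each clone, 4 of 4 pairs of libraries, by any of the scalings used. The libraries of 11C share only a replicate number and were not treated as pairs. Their 2 states overlap for Gas5, although it was lower with Dox at each replicate number. In bulk libraries, fewer cells with an RNA and less of it per cell cannot be told apart.

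Snhg1 stood at 529, 673 and 599 RPM in C1, 2C2 and C11 without Dox and at 419, 478 and 539.6 RPM with Dox, or 600.3 ± 72.4 and 479 ± 60.5 RPM (SD, n = 3). In 11C it was at 362 and 306 RPM without Dox and 365 and 299 RPM with Dox, and in WT at 519 and 514 RPM. Each XistDelA clone was lower with Dox, WT was nearly level, the 2 states of 11C overlap, and every 11C library was below every other library. Snhg12 gave 124, 169.8 and 172 RPM in the clones without Dox and 102, 136 and 184 RPM with Dox, or 155 ± 27.1 and 141 ± 41.1 RPM (SD, n = 3). It gave 108 and 73.4 RPM in 11C without Dox, 142 and 83.6 RPM in 11C with Dox, and 145 and 165 RPM in WT. Snhg12 was lower with Dox in C1 and 2C2 and higher in C11 and WT, and the 2 states of 11C overlap. Its 11C and XistDelA values overlap with Dox but not without it.

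The levels of the hosts were correlated over the libraries. Pearson's r of log2 levels between Gas5 and Snhg1 was 0.96 over the 12 libraries and 0.98 over the 8 outside 11C. For Snhg1 and Snhg12 it was 0.87 and 0.77, and for Gas5 and Snhg12 0.82 and 0.81. These libraries share lines and clones, so the values mix differences between lines and clones with those of Dox and describe the pattern without a test. Within the 4 pairs of WT and the clones, Gas5 was lower with Dox in 4 and Snhg12 in 2. Malat1 against Snhg1 had an r of -0.64 over all 12 libraries and 0.47 over the 8, so its sign differs between the 2 sets.

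Every line carries inducible Xist, so in these libraries an effect of Dox itself and one of the induced Xist cannot be told apart. For the effect of Dox in XistDelA, edgeR called none of the 7 members when clones were treated as independent. There 3 of 14866 genes passed a Benjamini-Hochberg adjusted p of 0.05 (0.0202%), with 2162 at an unadjusted p under 0.05, and DESeq2 called 421 genes and no member. Without clone 2C2 the count was 0. With the clone as a block, since both states come from the same 3 clones, 4 of 7 members passed, all lower with Dox, beside 29.7% of genes called and 14.9% called lower. Gas5 fell by 0.34 on the log2 scale (SE 0.05, adjusted p = 4.8e-06 by edgeR; 0.341 without the block). Snhg1 fell by 0.35 (SE 0.05, adjusted p = 8.6e-06; 0.284 without the block), and both were lower in 3 of 3 clones. Malat1 fell by 0.18 (SE 0.04, adjusted p = 0.0017), also in 3 of 3 clones, and Snhg12 by 0.19 (SE 0.06, adjusted p = 0.018), in 2 of 3. Without the block the adjusted p was 0.363 for Malat1 and 0.778 for Snhg12. The Snhg12 value without the block, -0.17, moved with single clones, to -0.06 without 2C2 and -0.35 without C11. Neat1 at -0.14 (adjusted p = 0.098), Miat at -0.35 (0.095) and Tug1 at -0.06 (0.35) did not pass with the block.

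In 11C, edgeR called 0 of 15140 genes for Dox (0%), with 173 at an unadjusted p under 0.05, and DESeq2 called 3, none a member. Leaving out 1 library gave 4 genes (either replicate without Dox), 13 (replicate 1 with Dox) or 14 (replicate 2 with Dox), again no member. Even the induced Xist, at 5.40 on the log2 scale (SE 0.41), had an adjusted p of 0.0546 by edgeR, so the absence of calls says little about the members. Gas5 was at -0.18 (SE 0.23), Snhg1 at -0.02 (SE 0.21) and Snhg12 at 0.30 (SE 0.27) on the log2 scale, from 2 replicates a state. Single libraries moved these: Snhg12 lay between 0.01 (without replicate 1 with Dox) and 0.57 (without replicate 2 with Dox), and Gas5 between -0.23 (without replicate 2 without Dox) and -0.09 (without replicate 1 without Dox). The difference between the Dox effects of 11C and XistDelA was itself tested: edgeR called 0 of 15745 genes (0%), with 233 at an unadjusted p under 0.05, and DESeq2 called 2, none a member. That difference was 0.36 for Snhg1 (SE 0.23), 0.48 for Snhg12 (SE 0.37) and 0.18 for Gas5 (SE 0.25). With 1 clone or 1 library of 11C left out, it ran from 0.25 to 0.48 for Snhg1, 0.20 to 0.72 for Snhg12 and 0.10 to 0.28 for Gas5. A Dox effect that differs between the lines was thus not shown for these hosts.

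**Figure D2:**
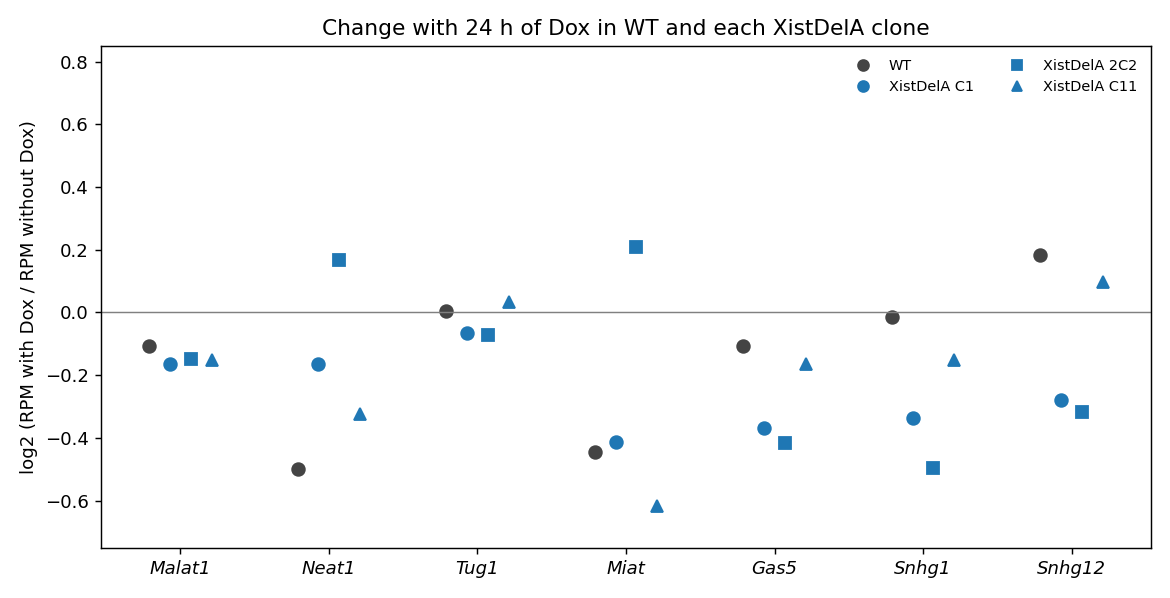
Log2 ratio of RPM with Dox to RPM without Dox (y axis) for each lncRNA (x axis) in the 4 pairs of libraries of WT and the XistDelA clones, 1 symbol per pair. Gas5 lies below 0 in all 4 pairs, between -0.42 and -0.11, and Snhg12 lies above 0 in 2 of them.

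Between the lines without Dox, the snoRNA hosts were lower in 11C than in XistDelA. edgeR called 3 of 7 members, all lower, beside 23.1% of 15100 genes called and 11.9% called lower. Snhg1 was at -0.97 (SE 0.16, adjusted p = 0.0050), Snhg12 at -0.91 (SE 0.19, adjusted p = 0.013) and Gas5 at -0.61 (SE 0.16, adjusted p = 0.030) on the log2 scale. For each of these 3 hosts both 11C libraries without Dox lay below all 3 clones, as for 23.4% of 12283 genes. Snhg1 passed under each of 9 alternatives, with adjusted p from 9.0e-07 to 0.030. Gas5 missed the threshold without clone 2C2 (-0.50, adjusted p = 0.131), without C11 (-0.58, 0.0933) and without 11C replicate 2 (-0.53, 0.0906), against a lowest of 0.0037 over its alternatives. Snhg12 missed it without 2C2 (-0.82, 0.0607) and without 11C replicate 2 (-0.71, 0.0666), against a lowest of 3.2e-04. Without 2C2 the count of all genes called dropped to 1119, and without C11 to 2073.

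With Dox, 1157 of 15384 genes differed between the lines (7.52%) and no member was among them. Snhg1 was at -0.58 (SE 0.19, adjusted p = 0.10), Snhg12 at -0.40 (SE 0.27, 0.37) and Gas5 at -0.40 (SE 0.22, 0.26). Snhg12 moved with single libraries, from -0.15 without C11 and -0.20 without 11C replicate 2 to -0.61 without C1 and -0.70 without 11C replicate 1. Fitting the 10 libraries of both lines together brought Snhg1 (0.0305) and Tug1 (0.0280) under the threshold, and DESeq2 called Snhg1 (0.0375), Tug1 (0.0432) and Neat1 (0.0452). The count of genes called moved with single libraries, to 95 without C11, 112 without 2C2, 413 without C1, 2467 without 11C replicate 1 and 3236 without 11C replicate 2. Taking all 12 libraries, Snhg1 RPM was lower in the 4 of 11C than in any other, as for 12.8% of 12283 genes, and the same held over TMM-scaled library sizes.

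**Figure D3:**
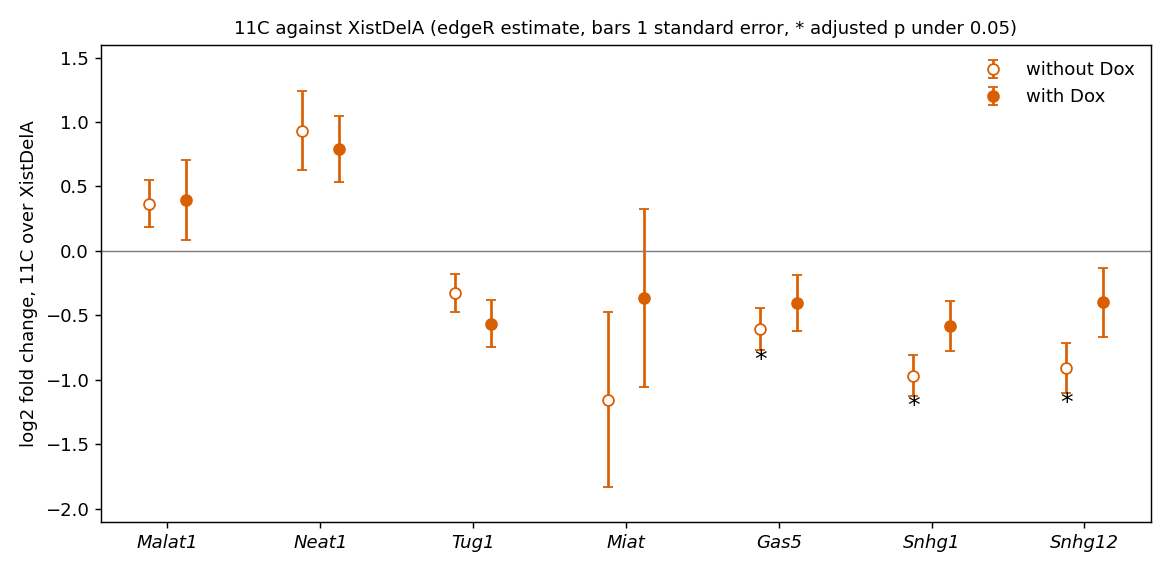
Log2 fold change of 11C over XistDelA (y axis) for each lncRNA (x axis) without Dox (open) and with Dox (filled), from edgeR, with bars of 1 standard error and a star where the adjusted p is under 0.05. The stars stand at Gas5 (-0.61), Snhg1 (-0.97) and Snhg12 (-0.91) without Dox.

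The line comparison carries other differences between the libraries, and 23.1% of all genes were called in it without Dox. Markers of extra-embryonic endoderm were higher in 11C without Dox in 3 of 3 tested genes of a list of 4, with Gata4 at 1.55 (adjusted p = 0.0041), Gata6 at 1.89 (0.0058) and Sox17 at 1.49 (0.025). Their summed level in 11C was 28.0 and 19.7 RPM without Dox and 27.9 and 19.4 RPM with Dox. In the other libraries the sums were 9.29 and 9.28 RPM in WT, 5.44 and 6.22 in C1, 6.62 and 7.03 in 2C2, and 8.55 and 7.39 in C11, with Gata4 the most abundant gene everywhere. Afp, a defining marker, was between 0 and 0.0833 RPM. Feeder fibroblast markers summed to 4.70 to 10.2 RPM in 11C and 8.92 to 14.3 RPM elsewhere, led by Col1a2 or Thy1, with Lum at 0.074 RPM or less in every library and at 0 in those of 11C and most others, and 2 of 6 tested were lower and 1 higher in 11C. Neuron markers summed to 101 to 135 RPM in 11C and 143 to 178 RPM elsewhere, with Map2 the most abundant in every library, and 2 of 4 were lower (Syt1 and Map2), while Snap25 and Rbfox3 were at 0.67 (adjusted p = 0.188) and 0.60 (0.254). Of 7 tested mESC markers, 3 were lower (Dppa5a, Nanog and Pou5f1) and Utf1 was higher. The part of these markers, and of whatever runs with Rmrp, in the lower levels of the snoRNA hosts was not tested, and the line and its library set cannot be told apart.

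Other snoRNA host lncRNAs were listed for comparison. Of 17 listed, 16 were in the files and tested, all but Snhg14. Without Dox, 8 of 16 differed between 11C and XistDelA, 7 lower and 1 higher, beside 23.1% of all genes called and 11.9% called lower, with a median log2 change of -0.55 beside 0.02 over all genes tested. Zfas1 (-1.28, adjusted p = 0.0028), Snhg6 (-1.26, 0.0028), Snhg16 (-1.04, 0.0084) and Snhg5 (-1.02, 0.015) were lower, and Snhg20 was higher (0.90, 0.030). With Dox, 4 of 16 were called, 3 lower, beside 7.52% of all genes. For Dox in XistDelA with the clone as a block, 6 of 16 were lower and 1 higher, beside 29.7% of all genes called and 14.9% called lower, with a median of -0.12 beside 0.01 over all genes, led by Snhg16 (-0.33, 2.1e-05) and Snhg7 (-0.27, 2.8e-04). For Dox in 11C the median was 0.18, with 4 of 16 negative, and edgeR without a block called 0, with 1 at an unadjusted p under 0.05. The difference of the Dox effects between the lines had a median of 0.36, again with 0 called and 1 at an unadjusted p under 0.05.

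Transcripts for protein partners of snoRNAs were read from the same libraries, with no protein measured. Of 8 genes for core proteins of box C/D and H/ACA snoRNPs, the particles into which the released snoRNAs assemble, 3 were lower in 11C without Dox: Nop58 (-1.01, adjusted p = 0.0071), Dkc1 (-0.71, 0.0085) and Fbl (-0.78, 0.010), beside 11.9% of all genes called lower, and the list's median was -0.44. With Dox, edgeR called 0 of the 8 between the lines (median -0.26), beside 7.52% of all genes, with 2 at an unadjusted p under 0.05. For Dox in 11C it called 0, with 0 under that p and a median of -0.03. With the clone as a block, 7 of 8 were lower with Dox in XistDelA, beside 14.9% of all genes, with a median of -0.31, among them Nop58 at -0.35 (9.1e-07) and Nhp2 at -0.34 (8.9e-05). The spliced RNAs of Gas5 and Snhg1 are known targets of nonsense-mediated decay. Of 10 genes for factors of that pathway edgeR called none between the lines, beside 23.1% of all genes without Dox and 7.52% with Dox. Of these 10, 2 were at an unadjusted p under 0.05 without Dox and 1 with Dox. Their median without Dox was 0.03. In XistDelA with the block, 2 of these 10 were called with Dox, beside 29.7% of all genes. They were Smg6, which was higher (0.27, 4.5e-05), and Smg8, which was lower (-0.34, 0.0085).

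Of the nuclear-retained members, Malat1 was at 8497, 7684 and 8001 RPM in C1, 2C2 and C11 without Dox and 7576, 6935 and 7199 RPM with Dox. The means were 8060.5 ± 410.1 and 7237 ± 322 RPM (SD, n = 3). In 11C it was at 12500.2 and 10119 RPM without Dox and 9406 and 10147 RPM with Dox, and in WT at 7591 RPM (Poisson 95% interval 7558 to 7624) and 7055 RPM (7024 to 7087). All 4 libraries of 11C were above the other 8 by RPM, as for 15.3% of 12283 genes, but not over TMM-scaled library sizes, where the lowest 11C value (8257) fell below the highest of the others (8707). Dox went with lower Malat1 in WT and in each XistDelA clone, and the 2 states of 11C overlap. By edgeR the line difference was 0.37 without Dox (SE 0.18, adjusted p = 0.169; DESeq2 0.044) and 0.40 with Dox (SE 0.31, 0.439). With Dox it became 0.54 (0.0453) without 11C replicate 1 and 0.16 (0.390) without replicate 2.

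Neat1 was at 98.1, 86.1 and 107 RPM in the clones without Dox and 87.5, 96.6 and 85.5 RPM with Dox, or 97.1 ± 10.6 and 89.9 ± 5.88 RPM (SD, n = 3). In WT it was at 103 RPM without Dox (98.98 to 107) and 72.7 RPM with Dox (69.5 to 75.9). In 11C, replicate 1 was at 302 RPM without Dox and 233 RPM with Dox, while replicate 2 was at 109 and 99.4 RPM. Replicate 2 sat just above the clones of its state and replicate 1 far above them. The line difference was 0.93 without Dox (SE 0.31, adjusted p = 0.056) and 0.79 with Dox (SE 0.26, 0.095). Leaving out replicate 2 put it at 1.46 (0.0092) and 1.16 (0.0149), and leaving out replicate 1 at 0.11 and 0.20, so the size of the difference rests on 1 library in each state. DESeq2 (0.015) and edgeR with no filter on low counts (0.023) also called Neat1 without Dox.

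Tug1 was at 336, 282 and 327 RPM in the clones without Dox and 321, 268 and 335 RPM with Dox, or 315 ± 29.1 and 308 ± 35.2 RPM (SD, n = 3). It was at 301 and 302 RPM in WT, 314 and 233 RPM in 11C without Dox, and 238 and 195 RPM in 11C with Dox. The states of WT and of the clones are nearly level for Tug1. The 11C libraries as a set overlap the others, since replicate 1 without Dox lies among them. The line difference was -0.33 without Dox (SE 0.15, adjusted p = 0.138) and -0.57 with Dox (SE 0.18, 0.094). The value without Dox became -0.49 without 11C replicate 1 and -0.18 without replicate 2. Miat, at 3.34, 2.44 and 5.64 RPM in the clones without Dox and 2.51, 2.82 and 3.68 RPM with Dox, was at 5.14 and 3.78 RPM in WT. In 11C, replicate 1 was at 3.43 and 4.61 RPM, and replicate 2 at 0.318 and 0.380 RPM, from 6 and 8 read pairs. Miat was therefore within or just above the range of the clones in 1 library of 11C in each state and close to 0 in the other. Its line difference was -1.15 without Dox (SE 0.68, adjusted p = 0.237) and -0.37 with Dox (SE 0.69, 0.763). Without Dox it became -3.62 (0.020) without replicate 1 and -0.33 (0.652) without replicate 2. With Dox it became -2.91 (0.026) without replicate 1 and, with the sign reversed, 0.40 (0.352) without replicate 2.

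Transcripts for proteins of the bodies that Malat1 and Neat1 occupy were counted as well. Of 10 paraspeckle protein genes tested of 11 listed, 4 were lower in 11C without Dox (11.9% of all genes tested were), with a median of -0.44, among them Sfpq (-0.63, adjusted p = 0.017), whose protein binds Neat1. With Dox 1 of the 10, Nono, was called (-0.76, 0.042), beside 7.52% of all genes. The paper reports that deleting the A-repeat nearly abolishes silencing by Xist, while the other deletion reduces it slightly. The gene lists were not split by chromosome, so genes on the X chromosome were not set apart. The part of X silencing in the Nono call was not tested. Dox in XistDelA with the clone as a block gave 3 of 10 lower (14.9% of all genes), led by Hnrnpk (-0.35, 1.7e-06). Of 12 nuclear speckle protein genes, 5 were lower in 11C without Dox, beside the same 11.9%, with a median of -0.45, led by the splicing factor genes Srsf7 (-1.26, 0.0028) and Srsf3 (-0.83, 0.0059). None of these 12 was called between the lines with Dox, beside 7.52% of all genes. In XistDelA with the block, 8 were lower with Dox, beside the same 14.9%, median -0.16. Of 10 other nuclear lncRNAs, Pvt1 was higher in 11C without Dox (0.77, 0.0094), Norad (-0.79, 0.013) and Mir17hg (-0.67, 0.014) were lower, beside 23.1% of all genes called in either direction, and the median was -0.45. No gene of any of these 6 lists was called for a change of level with Dox in 11C by the edgeR test without a block.

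Reads that overlap a sequence difference between the parents give each lncRNA a 129S share. Between 44.6% and 47.1% of all counts per library could be assigned. Without Dox, 7333 of 12249 genes (59.9%) had a share away from 0.5 by edgeR over the 6 libraries, and 4 of 6 tested members were among them. Miat failed the minimum of 10 allelic reads per library, with 2 to 74 over the 12, and is given no share. A tilt in mapping toward one genome is not separated from a tilt in RNA, so the median gene of the same chromosome is given beside each member.

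Gas5 had the lowest mean share, 0.445 over the 12 libraries, with 0.448 to 0.466 in the 8 libraries of WT and XistDelA and 0.403 to 0.439 in the 4 of 11C. The log2 ratio of 129S to Castaneus reads was -0.34 without Dox (SE 0.05, adjusted p = 3.3e-04). Gas5 was below the median gene of chromosome 1 (0.512 to 0.529) in 12 of 12 libraries, and its 11C libraries lie below all others. Snhg1 showed the same split, with 0.493 to 0.507 outside 11C and 0.434 to 0.481 in 11C. These are 2 of 6 members with shares, beside 3.64% of 12042 genes whose 11C libraries all lie below the rest. Snhg1 was below the median of its chromosome in 12 of 12 libraries. Its log2 ratio of -0.08 did not pass (SE 0.05, adjusted p = 0.203). Snhg12, at 0.450 to 0.530, lay on both sides of 0.5 and did not pass (0.01, SE 0.05, adjusted p = 0.825). In C1 with Dox the Snhg12 share (0.450) was below that of Gas5 (0.463).

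Malat1 lay in a narrow band, from 0.522 to 0.543, above the median of chromosome 19 (0.515 to 0.528) in 12 of 12 libraries. Its log2 ratio was 0.18 (SE 0.02, adjusted p = 4.9e-05). Neat1, on the same chromosome, was at 0.518 to 0.592 (log2 ratio 0.32, SE 0.05, adjusted p = 8.1e-04), above that median in all libraries but WT without Dox. Tug1 divided the libraries in another way: 0.657 to 0.668 in clone C1 and 0.646 to 0.663 in 11C, but 0.479 to 0.528 in WT, 2C2 and C11. The median gene of chromosome 11 moved with it, at 0.690 to 0.691 in C1, 0.680 to 0.685 in 11C and 0.500 to 0.550 in WT, 2C2 and C11. The Tug1 log2 ratio of 0.48 passed (SE 0.17, adjusted p = 0.0356) but missed the threshold without C1 (0.37, 0.104), without 11C replicate 1 (0.104) and without replicate 2 (0.098). Relative to its chromosome's median, Tug1 was below in 11 of 12 libraries.

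**Figure D4:**
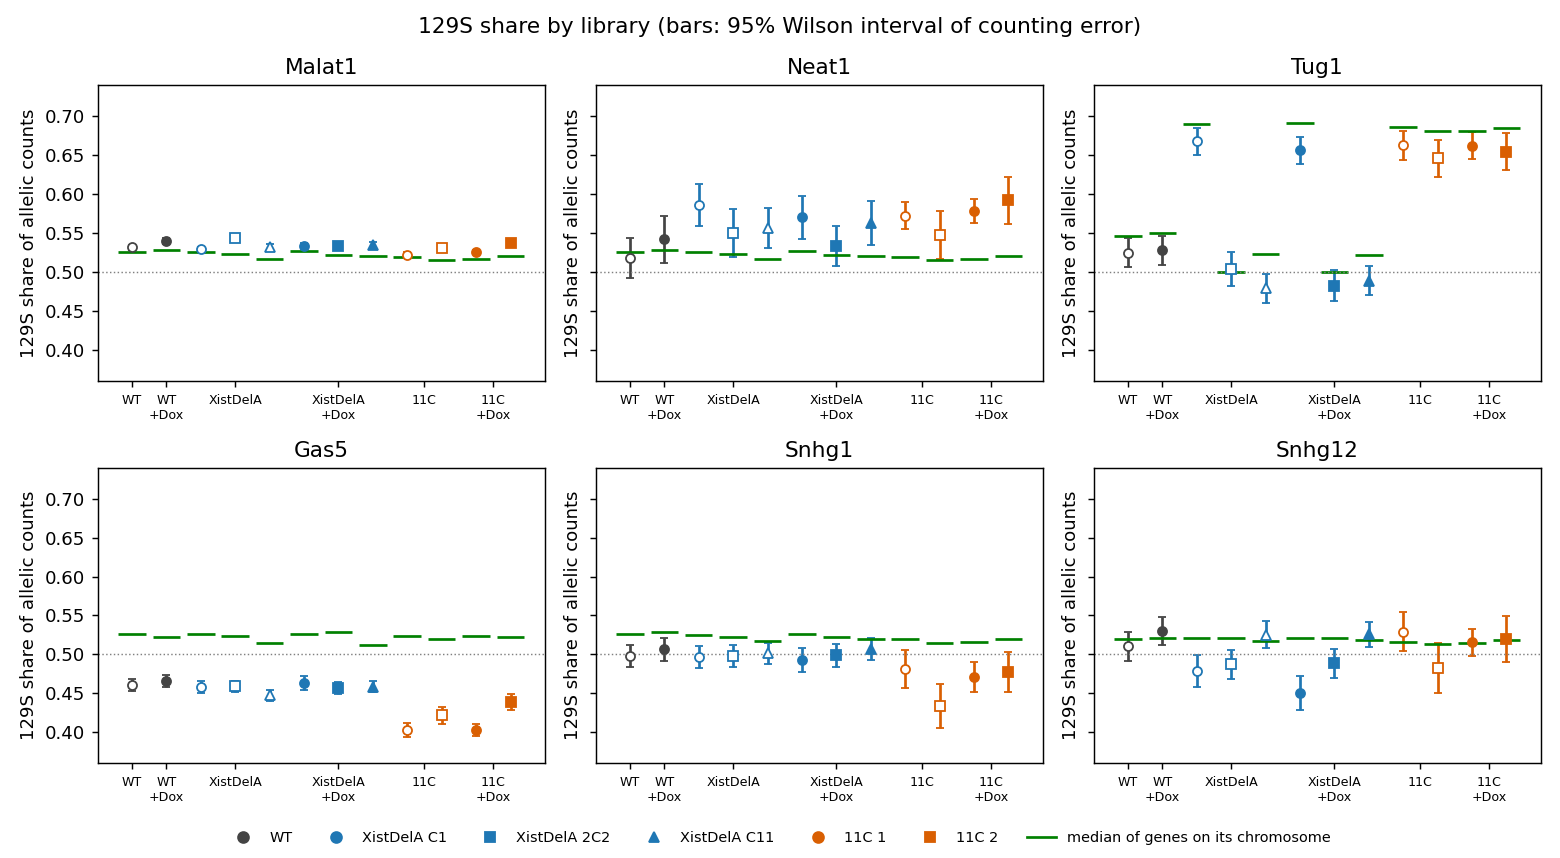
129S share of allelic counts (y axis) by library (x axis, ordered by line and Dox) for the 6 lncRNAs with enough allelic reads, with 95% Wilson intervals of counting error and a green line at the median gene of the same chromosome. Tug1 and the median of its chromosome are both above 0.64 in clone C1 and 11C, and Gas5 is below its chromosome's median in every library.

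Dox, which induced Xist from the 129S X chromosome, went with no called change in the share of any of these autosomal lncRNAs. For Dox in XistDelA edgeR called 0 of 12551 genes (0%), with 487 at an unadjusted p under 0.05. It called 145 with the clone as a block, and none was one of the 7 members, Miat included, that had enough allelic reads in these 6 libraries. In 11C it called 104 of 12554 (0.828%), none of the 6 members tested, and 58 without either replicate without Dox or 34 without replicate 1 with Dox. Of the listed genes in 11C, the test without a block called 2 of 9 other nuclear lncRNAs and 1 of 10 paraspeckle protein genes, all lower. It also called 1 of 15 other snoRNA hosts, with a higher share, and none of the other lists, beside the same 0.828%. Listed genes on the X chromosome, whose 129S copy carries the inducible Xist, were not set apart from autosomal ones. Between 11C and XistDelA without Dox, 2 of 12268 genes differed in share (0.0163%), again no member. Gas5 was at -0.25 on the log2 scale (SE 0.05, adjusted p = 0.301), Snhg1 at -0.24 (SE 0.09, 0.433) and Tug1 at 0.62 (SE 0.33, 0.502). The Snhg1 value was -0.38 without 11C replicate 1 and -0.10 without replicate 2. Without clone C1 the count became 590 genes and Tug1 was called (0.97, adjusted p = 0.0022). The count was 0 or 1 without each of the other libraries in turn.

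How much of a lncRNA could be assigned to a parent at all also differed by line. For Snhg1, 19.2% to 22.9% of read pairs were assigned in the 4 libraries of 11C, against 31.3% or more in the other 8. Gas5 had means of 70.3% and 78.2%, Snhg12 63.2% and 70.3%, Neat1 47.3% and 51.7%, and Malat1 34.9% and 39.6%. For these 5 of the 6 members with at least 100 reads in each library, all 4 libraries of 11C were below all others, a pattern found in 30.4% of 9406 genes. Tug1 did not show it, at 35.2% and 32.8%. This share moves with the same set of libraries as the lower host levels and the lower 129S shares of Gas5 and Snhg1 in 11C, and its part in them was not tested.

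**Figure D5:**
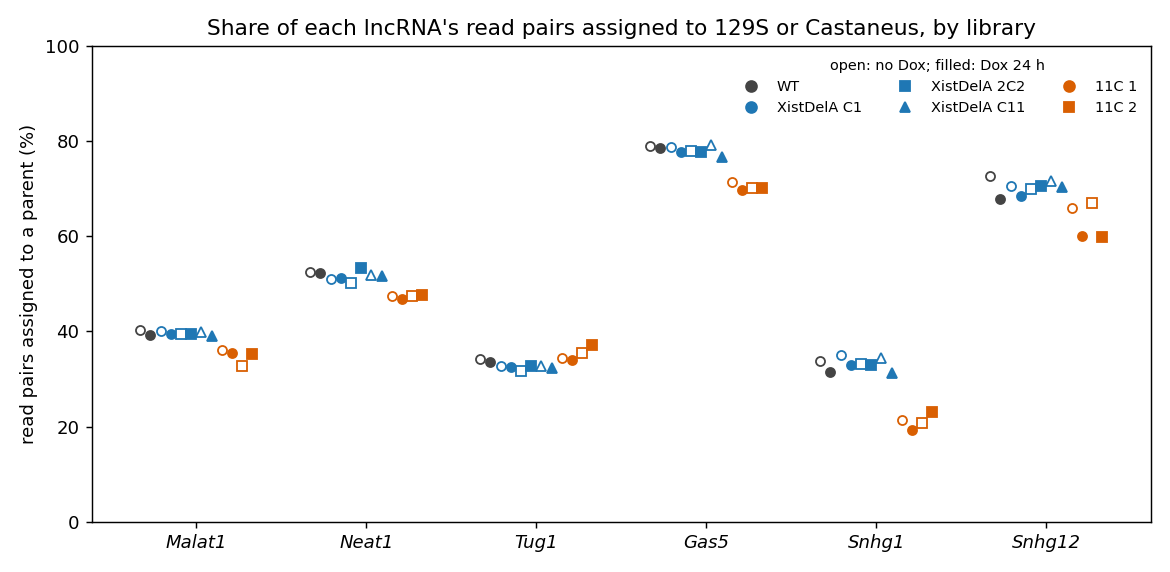
Percent of each lncRNA's read pairs assigned to 129S or Castaneus (y axis, from 0 to 100) in the 12 libraries (1 symbol per library). For Snhg1 the 4 libraries of 11C lie between 19.2% and 22.9%, below the other 8.

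Some of the nearest counted neighbours were compared as well, first between the lines without Dox, where 23.1% of all genes were called. Slc3a2, an amino acid transporter subunit that starts 117 bases from Snhg1 on the other strand, was also lower in 11C without Dox (-0.44, adjusted p = 0.046), as was Wdr74 on the other side of Snhg1 (-0.64, 0.033). Zbtb37 beside Gas5 was at 0.13 (0.526), and Taf12 and Trnau1ap beside Snhg12 were at -0.02 (0.959) and -0.34 (0.228). None of these 3 passed the line test in which both hosts did. Frmd8 next to Neat1 (-0.06, 0.816) did not pass either. Beside Tug1, Smtn was higher in 11C without Dox (1.13, 0.0078) and Morc2a, 679 bases away, was not called (-0.14, 0.556). Tpst2 and E130006D01Rik beside Miat were not called. For Dox in XistDelA, edgeR with the clone as a block called 29.7% of all genes. There Slc3a2 (-0.14, adjusted p = 0.034), Wdr74 (-0.35, 2.8e-04) and Morc2a (-0.16, 0.0093) were lower and Zbtb37 was higher (0.17, 0.027). The other neighbours named here were not called, and without the block none was.

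Genes whose log2 levels followed the hosts most closely over the 12 libraries, of 16254 genes compared, were Hnrnpdl (r = 0.99) and Krr1 (0.97) for Gas5, Ado (0.98) and Kbtbd7 (0.98) for Snhg1, and Epb41l4aos (0.98) and Mrps18b (0.97) for Snhg12. Over the 8 libraries outside 11C these values were between 0.93 and 0.99. For Malat1 they were Wdr96 (0.94) and Tmem81 (0.93), for Neat1 Arfip2 (0.96) and Gm4371 (0.94), for Tug1 Il1rapl2 (0.95) and 2510003E04Rik (0.94), and for Miat Slc25a44 (0.98) and Ipo13 (0.97). Over the 8 libraries outside 11C these were 0.84 and 0.77 for Malat1, 0.80 and 0.70 for Neat1, 0.79 and 0.87 for Tug1, and 0.95 and 0.89 for Miat, in the same order.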

How the data were processed

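The deposited files give counts of read pairs per gene, which the authors made with featureCounts 1.5.2 on mm10 (stranded, whole transcript spans, fragments on several genes and multi-mapped reads left out), for all reads and for reads assigned to each parental genome; STAR 2.4.2a and Bowtie2 2.3.2 are named in the submitters' processing notes. Counts were divided by the library's total to give RPM. Tests used edgeR 4.0.16 (quasi-likelihood, TMM, filterByExpr minimum count 10) in R 4.3.3, with Benjamini-Hochberg over all genes tested and a threshold of 0.05, and DESeq2 1.42.0 as an alternative. Allelic tests had a term per library, no TMM and at least 10 allelic counts per library. The code was tested on simulated counts in which 200 genes changed by 1 on the log2 scale. It recovered 63% of them for Dox in XistDelA, 4.5% for Dox in 11C and 51% between the lines without Dox. For the share with Dox in XistDelA, simulated with counting error only, it recovered 80.5%. WT has no replicates and was itself tested for neither Dox nor line, although its libraries were part of the alternative fits of all 12 libraries. Clones were checked as pairs: the residual profiles of a clone with and without Dox correlated at 0.59, 0.37 and 0.54 across 16254 genes, all other pairings below 0. Residuals sum to 0 within a state, so the negative values of the other pairings add no separate support. Alternatives were DESeq2, its size factors, no filter, a block, fits over more libraries, a minimum of 50 allelic counts, the chromosome median as reference, other RPM denominators and leaving out each replicate. The named genes are the 7 members, for each member the 2 genes with the highest r and neighbouring genes averaging 50 counts or more, Xist and the gene lists; Rmrp was added after its values were seen. Members and lists were chosen with earlier results of these data known. Coordinates were taken from the files, GENCODE M21 and RefSeq.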

Additional observations from a re-analysis of the deposited data

How the results depend on the processing

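Of 322 alternative log2 fold changes of the members, 284 kept their direction and side of the threshold, 17 came under it, 5 went above it and 16 changed sign; of 90 alternative log2 allelic ratios these numbers were 80, 1, 3 and 6. Of 84 alternative levels, 12 moved beyond their spread, all of WT, which has counting intervals only. The cause was not tested for any change below.

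Genes called for Dox in XistDelA were 421 by DESeq2, 4410 with the replicate block and 0 to 2 without 1 clone. For Dox in 11C they were 3 by DESeq2, 2 with no filter, 237 with the replicate block, 2 of them other nuclear lncRNAs (Tsix and Firre) and none a member, 2 in a fit of all 12 libraries and 4 to 14 without 1 library. The 237 genes called with the block were 1.57% of 15140 tested. Among them was also 1 of 7 tested mESC markers, lower with Dox. The 11C libraries share only a replicate number, and the residual profiles of same-numbered libraries correlated at 0.69. With 2 libraries per state the residuals mirror each other, so the 2 pairs necessarily give the same value. Between the lines they were 1119 to 3144 without Dox and 95 to 3236 with Dox when 1 library was left out, and 2045 by DESeq2 and 2613 in the 10-library fit with Dox. For the difference of the Dox effects they were 2 by DESeq2, 117 with the block (0.743% of genes tested) and 0 without any 1 XistDelA clone. With the block, 2 of 16 other snoRNA hosts were called, higher, and 2 of 10 other nuclear lncRNAs, lower. Also lower there were 1 of 10 paraspeckle protein genes and 1 of 10 genes for decay factors, and no member was called. Genes on the X chromosome were not set apart in these list counts. For the 129S share they were 145 with the block for Dox in XistDelA, 200 with the block and 34 to 81 without 1 library for Dox in 11C, and 83 with Dox libraries and 0 to 590 without 1 library between the lines.

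Values that changed sign were small or rested on the replicates of 11C, apart from the Tug1 share, which changed sign with the chromosome median as reference. Leaving out 1 library, Dox in 11C ranged from -0.91 to 0.52 for Neat1, -0.056 to 0.059 for Snhg1 and -2.16 to 2.84 for Miat, and the line difference of Miat with Dox from -2.91 to 0.40. The difference of the Dox effects was -0.0072 for Malat1 with the block, and ranged from -0.20 to 0.17 for Malat1, -0.74 to 0.64 for Neat1 and -1.77 to 3.22 for Miat. The log2 allelic ratio between the lines was 0.17 for Neat1 with Dox libraries, and ranged from -0.099 to 0.045 for Neat1 and -0.086 to 0.19 for Snhg12; away from a share of 0.5, Snhg12 ranged from -0.016 to 0.042. Relative to its chromosome's median, the 129S share of Tug1 was -0.023. A left-out replicate of 11C leaves 1 library in that group, which is then assumed to vary like the others. Depth limits Miat most, at 6 and 8 read pairs in 11C replicate 2.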
